A study of Mus musculus with 12 samples.

Results

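The Hox genes were measured in the epithelial and stromal layers of a mouse uterine co-culture, with and without estradiol (E2). A gene was included where the platform annotation gave a probe set a single symbol made of Hoxa, Hoxb, Hoxc or Hoxd and a number. This rule found 37 Hox genes among the 19938 genes with a single-symbol probe set. Of these, 10 belong to the HoxA cluster on chromosome 6, 9 to HoxB on chromosome 11, 9 to HoxC on chromosome 15 and 9 to HoxD on chromosome 2. Each gene had 1 such probe set. Hoxb8 has only a probe set shared with Hoxb7 and was left out.

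Hox genes encode homeodomain transcription factors and lie in 4 clusters. Their order along the chromosome matches the order of the body regions in which they are active, so that low numbers (paralog groups) mark anterior and high numbers posterior regions. In the female reproductive tract the posterior HoxA genes are used in this way, with Hoxa9 in the oviduct, Hoxa10 and Hoxa11 in the uterus and Hoxa13 in the cervix and upper vagina. Hoxa10 and Hoxa11 are needed in the uterus for implantation and for the response of the stroma to progesterone. E2 is the main natural estrogen and acts through the estrogen receptor.

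The cells came from uteri of CD-1 mice on day 4 of pseudopregnancy, separated by enzymes. Epithelial sheets were grown on inserts coated with matrigel and stromal cells on cover slips, and both were kept overnight in medium with hormone-stripped serum. E2 at 10 nM or its vehicle, ethanol at 0.01%, was then given for 2 days, and RNA was taken from each layer separately. There were 4 groups of 3 arrays, namely vehicle epithelium, E2 epithelium, vehicle stroma and E2 stroma, 12 arrays in all. All groups had been co-cultured, and no layer cultured alone is part of the design. No label ties the replicates to separate animals or cultures. The p-values therefore rest on a spread between arrays that may be purely technical.

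Values are the log2 signals that the authors deposited. A log2 difference is given ± its standard error from limma, with n = 3 arrays in each group, and a mean ± SD is marked as such. An adjusted p is limma's p with Benjamini-Hochberg adjustment over all 23410 probe sets tested, and a gene rose, fell or was higher or lower in a layer where it was under 0.05. Levels of different genes come from different probes and are not ranked against each other. As a reference for dim signal, the 95th percentile of 1023 olfactory receptor probe sets was 6.72 and 6.84 in vehicle and E2 epithelium and 6.44 and 6.57 in vehicle and E2 stroma. The mean lay above it in all 4 groups for 17 of the 37 Hox genes, in 1 to 3 groups for 10, and in none for 10 (Hoxa2, Hoxa3, Hoxb13, Hoxc4, Hoxc11, Hoxc12, Hoxc13, Hoxd1, Hoxd12 and Hoxd13). By group, 26 and 24 Hox genes lay above it in vehicle and E2 epithelium and 18 and 19 in vehicle and E2 stroma.

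The epithelial markers separated the layers as labelled, while the stromal markers did not under E2. The mean of 18 epithelial markers ran from 9.57 to 11.11 over the vehicle epithelial arrays and from 9.48 to 9.78 over the E2 ones, against 6.74 to 6.92 and 6.98 to 7.13 in stroma. Under vehicle 17 of the 18 were higher in epithelium, and under E2 16. The mean of 19 stromal markers was 9.75, 9.47 and 10.37 in vehicle epithelial replicates 1, 2 and 3 and 10.38 to 10.45 in E2 epithelium, against 10.44 to 10.74 in the stromal arrays. Of these 19, 11 were lower and 1 higher in epithelium under vehicle (median -0.97), and 3 were lower and 3 higher under E2 (median -0.20). Vehicle epithelial replicate 3 thus stood apart from replicates 1 and 2 on both lists, at 9.57 for the epithelial markers, where the others had 10.53 and 11.11. The mean of 6 mesothelial markers ran from 8.96 to 9.78 in epithelium and 7.01 to 7.24 in stroma. Leukocyte markers (16) ran from 8.18 to 8.96 in epithelium and 9.01 to 9.40 in stroma, smooth muscle markers (11) from 9.48 to 9.81 and 10.45 to 10.72, and endothelial markers (12) from 7.74 to 7.92 and 8.04 to 8.30. Fewer cells of a type and less RNA per cell cannot be told apart in such samples. The part of these cells in the Hox differences between layers was not tested.

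**Figure D1:**
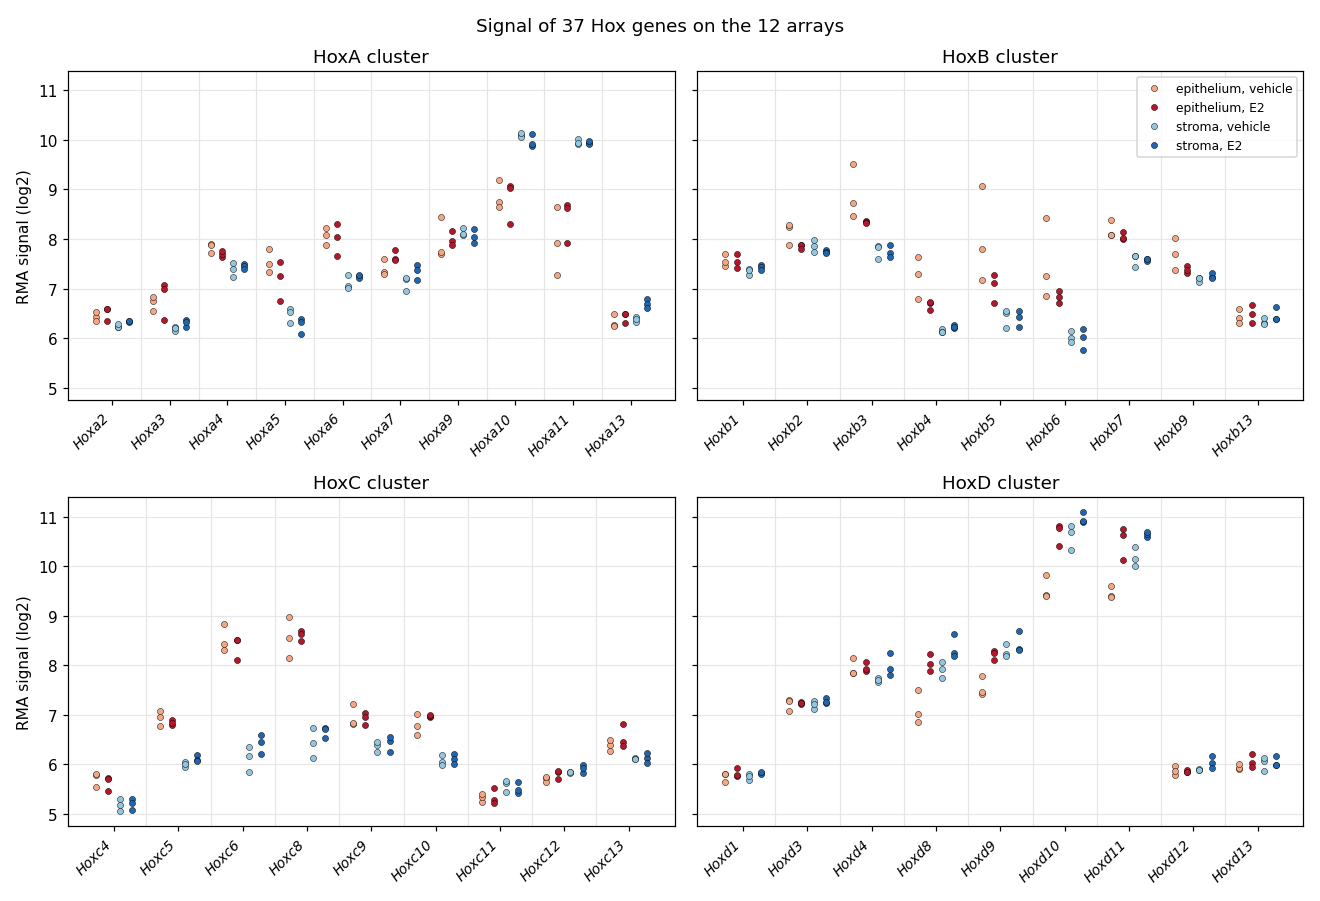
Deposited log2 signal of the 37 measured Hox genes in each of the 12 arrays. Each cluster has a panel, with genes in order of paralog number, a point for each array and the groups of layer and treatment in colours. HoxC genes such as Hoxc6 and Hoxc8 are brighter in each of the 6 epithelial arrays than in any of the 6 stromal ones, while Hoxa10 and Hoxa11 are brighter in each stromal array than in any epithelial one.

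The first question was how the paralog code differs between the layers. Under vehicle, 11 of the 12 measured central genes of the A, B and C clusters were higher in epithelium, and Hoxa10, Hoxa11 and Hoxd8 to Hoxd11 were higher in stroma. Of the 37 Hox genes, 16 were higher and 6 lower in epithelium, and 15 did not pass. Over all probe sets tested, 21.4% passed, 7.27% higher and 14.1% lower in epithelium. The median Hox difference (epithelium minus stroma) was 0.27, beside 0.02 over all probe sets. By position, 2 of the 7 anterior genes (groups 1 to 3) were higher and 0 lower. Of the 14 central genes (groups 4 to 8), 11 were higher and 1, Hoxd8, was lower. Of the 16 posterior genes (groups 9 to 13), 3 were higher and 5 lower. By cluster, 4 HoxA genes were higher and 2 lower, 6 HoxB and 6 HoxC genes were higher and 0 lower, and 4 HoxD genes were lower and 0 higher. Without vehicle epithelial replicate 3, 16 Hox genes were higher and 7 lower.

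**Figure D2:**
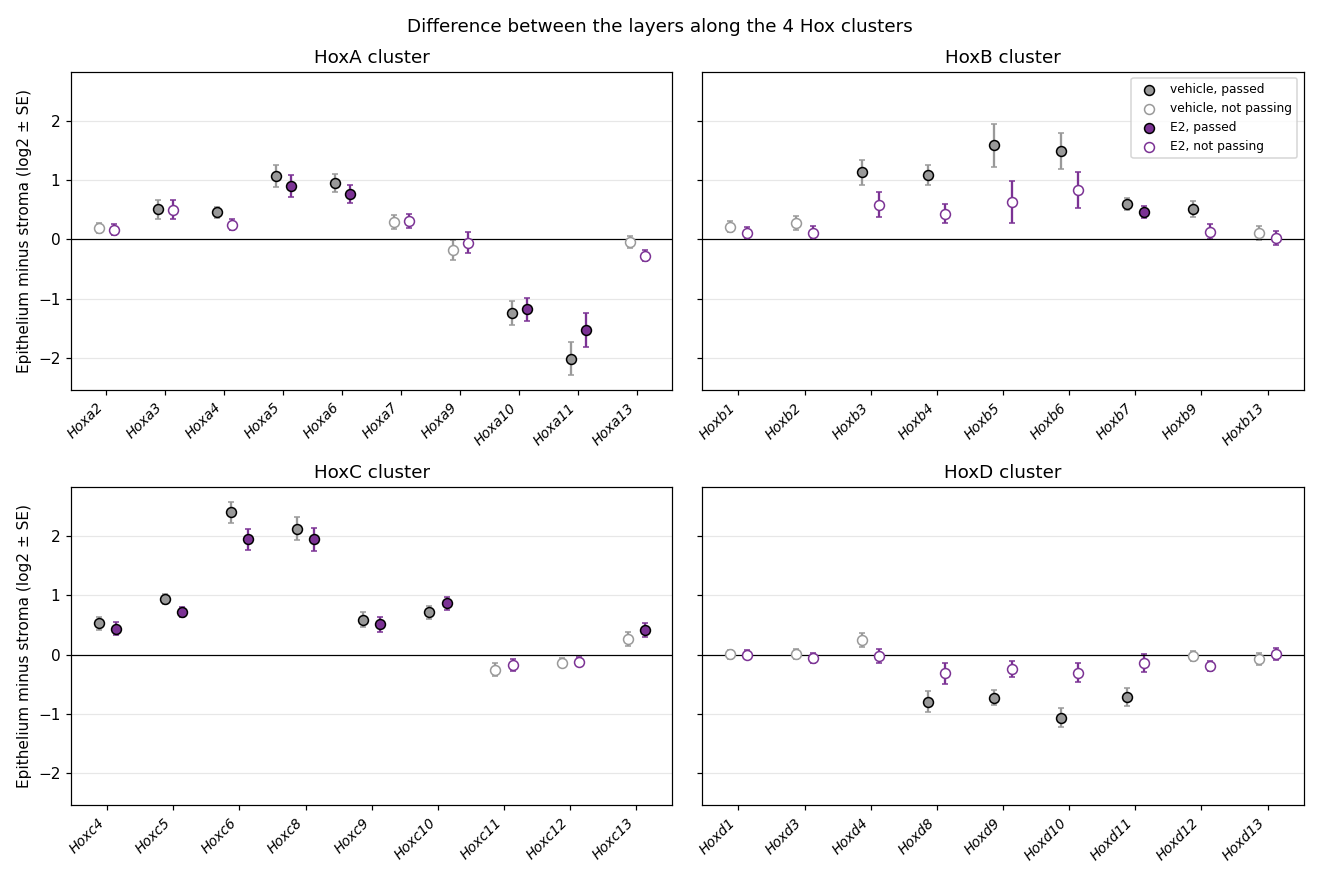
Log2 difference between layers (epithelium minus stroma) for each measured Hox gene by paralog number, in each cluster, under vehicle and under E2. Positive values are higher in epithelium and negative ones higher in stroma, and HoxC reaches 2.41 at Hoxc6 while Hoxa11 reaches -2.01.

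The largest differences toward epithelium were in the HoxC cluster. Hoxc6 stood at 8.30, 8.44 and 8.84 in vehicle epithelium and 8.51, 8.50 and 8.10 under E2, against 6.35, 5.85 and 6.16 in vehicle stroma and 6.60, 6.21 and 6.46 in E2 stroma. All 6 epithelial arrays were thus above all 6 stromal ones. The difference was 2.41 ± 0.18 under vehicle (5.30-fold, adjusted p = 9.77e-06) and 1.95 ± 0.18 under E2 (3.85-fold, adjusted p = 4.64e-05). Hoxc8 behaved alike, at 8.15, 8.98 and 8.55 in vehicle and 8.69, 8.64 and 8.49 in E2 epithelium, against 6.13 to 6.74 in stroma. The differences of Hoxc8 were 2.13 ± 0.20 under vehicle (4.38-fold) and 1.95 ± 0.20 under E2 (3.86-fold). For both genes the stromal means lay near the dim reference, so that these folds are no firm measure of the ratio of transcripts. Hoxc5 (0.94 and 0.72 under vehicle and E2), Hoxc10 (0.72 and 0.87), Hoxc9 (0.59 and 0.52) and Hoxc4 (0.53 and 0.44, dim in all groups) were also higher in epithelium under both treatments. In both stromal groups Hoxc5, Hoxc9 and Hoxc10 lay below the dim reference. The call under E2 was kept in 16 of 22 alternative settings for Hoxc9 and in 15 of 21 for Hoxc4. Hoxc13 passed only under E2 (0.42 ± 0.12, adjusted p = 0.0374), is dim in all groups and kept the call in 11 of 22 alternative settings. Hoxc11 and Hoxc12 did not pass.

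In the HoxA cluster the sign changed along the cluster. Hoxa5 averaged 7.54 ± 0.23 (SD, n = 3) in vehicle epithelium and 6.47 ± 0.14 (SD, n = 3) in vehicle stroma, a difference of 1.07 ± 0.19 (adjusted p = 0.00194), and 0.90 ± 0.19 under E2, where the stromal mean (6.27) lay below the dim reference. Hoxa6 was higher in epithelium by 0.95 ± 0.15 under vehicle and 0.76 ± 0.15 under E2. Hoxa4 (0.46 ± 0.09) and Hoxa3 (0.51 ± 0.16, adjusted p = 0.0416) passed only under vehicle. Hoxa3 is dim in all groups, and kept its call in 9 of 22 alternative settings. It lost it, among others, with the replicate number as a block (limma, adjusted p = 0.0641). That fit is given because same-numbered vehicle arrays of the layers deviated together, though weakly, and no label says that they were paired. Hoxa2 and Hoxa7 did not pass.

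Of the 4 posterior HoxA genes, Hoxa10 and Hoxa11 were lower in epithelium and Hoxa9 and Hoxa13 did not pass. Hoxa10 was 8.74, 8.64 and 9.19 in vehicle epithelium and 9.07, 9.02 and 8.30 in E2 epithelium, against 10.09, 10.06 and 10.13 in vehicle stroma and 9.88, 9.93 and 10.12 in E2 stroma. Every stromal array was above every epithelial one. The difference was -1.24 ± 0.20 under vehicle (2.36-fold higher in stroma, adjusted p = 0.00113) and -1.18 ± 0.20 under E2 (adjusted p = 0.00211). Hoxa11 was 7.92, 7.28 and 8.64 in vehicle epithelium and 8.68, 8.63 and 7.93 under E2, and lay between 9.91 and 10.02 in all 6 stromal arrays. Its difference was -2.01 ± 0.28 under vehicle (4.03-fold, adjusted p = 0.000588) and -1.53 ± 0.28 under E2 (2.89-fold, adjusted p = 0.00405). Within epithelium Hoxa11 was lowest in vehicle replicate 2, which had the highest epithelial (11.11) and the lowest stromal (9.47) marker mean. Hoxa9, the oviduct member, lay between 7.70 and 8.44 in epithelium and 7.92 and 8.23 in stroma, and the groups overlapped. Hoxa13, the cervical and vaginal member, lay between 6.25 and 6.49 in epithelium and 6.33 and 6.78 in stroma, near the dim reference.

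In the HoxB cluster all 9 measured genes had a positive difference between epithelium and stroma under vehicle, and 6 passed. Hoxb5 was higher in epithelium by 1.59 ± 0.36 (3.01-fold, adjusted p = 0.00915), Hoxb6 by 1.49 ± 0.30, Hoxb3 by 1.13 ± 0.21, Hoxb4 by 1.09 ± 0.16, Hoxb7 by 0.60 ± 0.10 and Hoxb9 by 0.51 ± 0.13. The vehicle stromal means of Hoxb4 (6.15), Hoxb5 (6.42) and Hoxb6 (6.02) lay below the dim reference, so that their differences are no firm measure of the ratio of transcripts. Vehicle epithelial replicate 2 was the highest array for each of the 6. It stood at 9.06 for Hoxb5, where replicates 1 and 3 had 7.81 and 7.17, and at 8.41 for Hoxb6, where they had 7.26 and 6.84. Under E2 only Hoxb7 passed (0.46 ± 0.10, adjusted p = 0.0112). With the 6 E2 arrays fitted alone Hoxb3, Hoxb4, Hoxb5 and Hoxb6 passed as well, higher in epithelium by 0.59, 0.43, 0.63 and 0.83. Under E2, however, Hoxb4 (6.67 in epithelium and 6.23 in stroma) and Hoxb6 (6.83 and 5.99) lay below the dim reference in both layers. Hoxb5 did so in stroma (6.40). With the 6 vehicle arrays alone Hoxb5 and Hoxb9 lost their calls (limma, adjusted p = 0.0530 and 0.0801). Hoxb1, Hoxb2 and Hoxb13 did not pass under either treatment.

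In the HoxD cluster the 4 genes Hoxd8 to Hoxd11 were lower in epithelium under vehicle, by -0.79 ± 0.18, -0.72 ± 0.13, -1.06 ± 0.16 and -0.71 ± 0.15 in that order (adjusted p = 0.00794, 0.00263, 0.000844 and 0.00680). Their neighbours Hoxd3 and Hoxd4 on the anterior side and Hoxd12 and Hoxd13 on the posterior side did not pass, nor did Hoxd1. Under E2 none of the 4 passed, with differences of -0.31, -0.24, -0.30 and -0.14. For Hoxd10 the interval of that difference ran from -0.65 to 0.05.

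Under E2, 10 Hox genes were higher and 2 lower in epithelium, where 13.6% of all probe sets passed, 4.43% higher and 9.18% lower. The median Hox difference was 0.13, beside 0.02 over all probe sets. Of the 22 genes that differed between layers under vehicle, 11 also differed under E2, each in the same direction, and these are Hoxa5, Hoxa6, Hoxa10, Hoxa11, Hoxb7, Hoxc4, Hoxc5, Hoxc6, Hoxc8, Hoxc9 and Hoxc10. The other 11 included Hoxb3 to Hoxb6 and Hoxd8 to Hoxd11, and for none of them was the change of the layer difference with E2 past the threshold in the interaction test. Over all 5 comparisons 23 of the 37 genes passed at least once and 14 never did.

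The next question was which Hox genes E2 changed within a layer. In epithelium Hoxd8, Hoxd9, Hoxd10 and Hoxd11, neighbours in 1 cluster, rose, and none of the other 33 passed. The promoters of these 4 genes are shown because the genes moved together and E2 acts through a DNA-binding receptor. Each line gives the 250 bases before the RefSeq start on the plus strand (GRCm38.p6), with GGTCA, or TGACC on the other strand, in capitals. These letters are 1 arm of the palindromic estrogen response element, in which GGTCA and TGACC are set 3 bases of any kind apart. The windows are chr2:74704365-74704614 for Hoxd8, chr2:74697513-74697762 for Hoxd9, chr2:74691641-74691890 for Hoxd10 and chr2:74679308-74679557 for Hoxd11.
Hoxd8: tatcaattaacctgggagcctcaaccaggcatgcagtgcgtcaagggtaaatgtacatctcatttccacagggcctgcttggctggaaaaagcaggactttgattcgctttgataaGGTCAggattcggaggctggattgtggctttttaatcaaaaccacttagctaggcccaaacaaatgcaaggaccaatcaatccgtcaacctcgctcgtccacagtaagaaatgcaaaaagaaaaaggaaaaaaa
Hoxd9: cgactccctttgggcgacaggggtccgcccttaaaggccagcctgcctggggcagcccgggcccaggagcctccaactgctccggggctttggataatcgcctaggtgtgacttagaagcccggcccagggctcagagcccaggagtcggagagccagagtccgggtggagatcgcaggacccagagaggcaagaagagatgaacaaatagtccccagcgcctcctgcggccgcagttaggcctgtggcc
Hoxd10: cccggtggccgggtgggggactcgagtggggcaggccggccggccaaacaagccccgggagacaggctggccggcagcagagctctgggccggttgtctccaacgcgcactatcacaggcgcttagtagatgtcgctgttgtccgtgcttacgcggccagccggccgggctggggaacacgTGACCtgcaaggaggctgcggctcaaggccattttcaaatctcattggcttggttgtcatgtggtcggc
Hoxd11: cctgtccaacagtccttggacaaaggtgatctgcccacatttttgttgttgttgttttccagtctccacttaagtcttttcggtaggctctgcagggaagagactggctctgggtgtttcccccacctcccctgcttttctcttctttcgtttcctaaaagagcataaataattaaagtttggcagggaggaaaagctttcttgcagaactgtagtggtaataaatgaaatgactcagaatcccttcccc

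The Hoxd8 window held 1 such arm, 134 bases before the start, and the Hoxd10 window 1, 69 bases before it, while the Hoxd9 and Hoxd11 windows held none. Over 32851 promoter windows of the same length, counted on both strands, 35.2% held the arm and 0.0639% the whole element. Of 24 Hox windows, 11 held the arm and 0 the whole element. The RefSeq table has 2 windows for Hoxd11, of which the first is shown, and the Hoxd10 window lies inside a gene model that begins farther upstream.

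Hoxd10 was 9.42, 9.40 and 9.81 in vehicle epithelium and 10.82, 10.76 and 10.40 in E2 epithelium. All 3 E2 arrays were above all 3 vehicle arrays. The rise was 1.12 ± 0.16 (2.17-fold, 95% interval 0.76 to 1.47, adjusted p = 0.00440). Hoxd11 went from 9.39, 9.38 and 9.61 to 10.75, 10.62 and 10.12, a rise of 1.04 ± 0.15 (2.05-fold, adjusted p = 0.00515). Hoxd8 went from 7.01, 6.86 and 7.50 to 8.03, 8.22 and 7.88, a rise of 0.92 ± 0.18 (1.89-fold, adjusted p = 0.0180). Hoxd9 went from 7.41, 7.45 and 7.79 to 8.28, 8.24 and 8.11, a rise of 0.66 ± 0.13 (1.58-fold, adjusted p = 0.0236). The groups did not overlap for any of the 4. Among all probe sets 2.90% passed in this comparison, 1.77% higher and 1.12% lower. The median E2 difference of the 37 Hox genes was 0.01 and of all probe sets 0.03. This comparison and that of the layers under vehicle share the vehicle epithelial arrays.

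These 4 calls depended on the fit. With the 6 epithelial arrays alone none of the 4 passed (adjusted p = 0.0716 for Hoxd10 and 0.0914 for Hoxd11), although the groups did not overlap. Leaving out 1 array at a time, Hoxd10 and Hoxd11 passed in every fit, and only these 2 passed without E2 epithelial replicate 1 or 2 or vehicle epithelial replicate 1. Without vehicle epithelial replicate 3 all 4 passed.

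**Figure D3:**
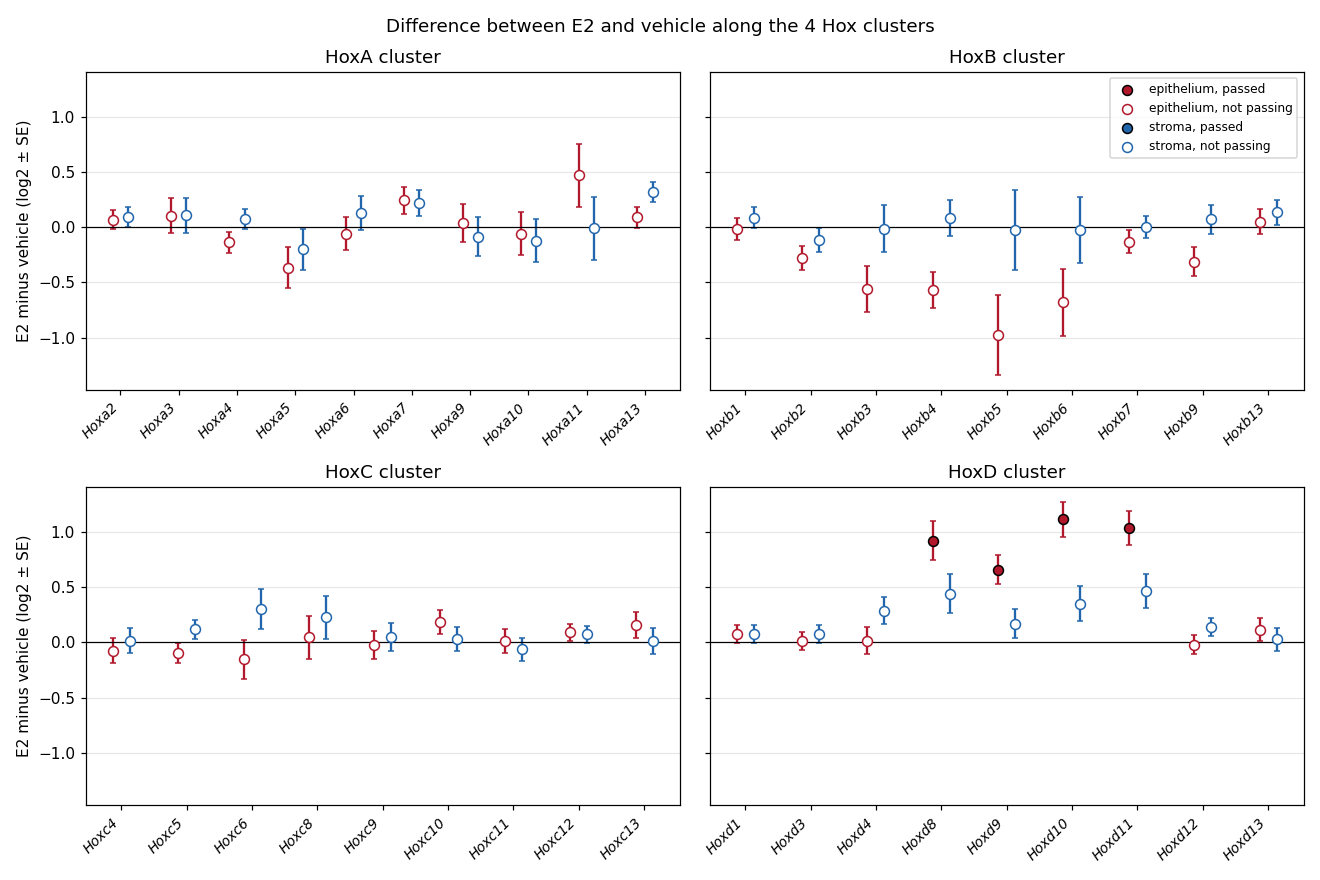
E2 effect (log2, E2 minus vehicle) of each measured Hox gene by paralog number in each cluster, in epithelium and in stroma. In epithelium Hoxd8, Hoxd9, Hoxd10 and Hoxd11 lie between 0.66 and 1.12, and Hoxb3 to Hoxb6 lie between -0.56 and -0.98 without passing.

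Some marker lists also differed between these arrays. With E2 in epithelium the median difference was 0.43 for the 19 stromal markers, of which 3 (Prrx1, Twist1 and Fap) passed as higher, beside 1.77% of all probe sets. It was 0.52 for the 16 leukocyte markers (14 positive, Csf1r passing) and -0.71 for the 18 epithelial markers (16 negative, Cldn4 passing). For the 11 smooth muscle markers the median was -0.13 (6 negative, Actg2 passing as lower). It was 0.05 for the 12 endothelial markers (Kdr passing as higher) and -0.12 for the 6 mesothelial markers (Msln passing as lower). Over all probe sets 1.12% were lower. Vehicle epithelial replicate 3 had a stromal marker mean of 10.37, beside 10.44, 10.45 and 10.38 in the E2 arrays, and an epithelial marker mean of 9.57, beside 9.48, 9.69 and 9.78. In that array Hoxd10 was 9.81, Hoxd11 9.61, Hoxd9 7.79 and Hoxd8 7.50, below every E2 epithelial array in each case. Hoxa10 and Hoxa11, which were higher in stroma as well, did not pass with E2 in epithelium (-0.06 ± 0.20, 95% interval -0.49 to 0.37, and 0.47 ± 0.28, 95% interval -0.16 to 1.09). Hoxa11 in that array was 8.64, within the 7.93 to 8.68 of the E2 arrays. The part of the other cell types in the HoxD rise was not tested.

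Hoxb3 to Hoxb6 were highest in the 2 arrays with the most epithelial marker signal, vehicle epithelial replicates 2 and 1. Hoxb5 was 7.81, 9.06 and 7.17 in vehicle and 7.10, 6.71 and 7.28 in E2 epithelium, and E2 minus vehicle came to -0.98 ± 0.36, without passing (adjusted p = 0.195). Hoxb6 was 7.26, 8.41 and 6.84 and then 6.70, 6.82 and 6.95 (-0.68 ± 0.30, adjusted p = 0.294). Hoxb3 was 8.72, 9.51 and 8.46 and then 8.36, 8.33 and 8.32 (-0.56 ± 0.21, adjusted p = 0.202), and Hoxb4 was 7.28, 7.63 and 6.79 and then 6.70, 6.56 and 6.73 (-0.57 ± 0.16, adjusted p = 0.0927). For Hoxb3 and Hoxb4 the groups did not overlap, and for Hoxb5 and Hoxb6 they did. Vehicle replicate 3, whose epithelial marker mean is like that of the E2 arrays, had the lowest value of the vehicle arrays for all 4. Of all 37 genes none was lower with E2 in epithelium after adjustment by limma, and 6 (Hoxb2 to Hoxb6 and Hoxb9) were lower at an unadjusted p under 0.05. Without vehicle epithelial replicate 3, 6 Hox genes passed as lower, and with array weights 2 did (Hoxb4 and Hoxb5). The part of the epithelial marker level in these differences was not tested.

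**Figure D4:**
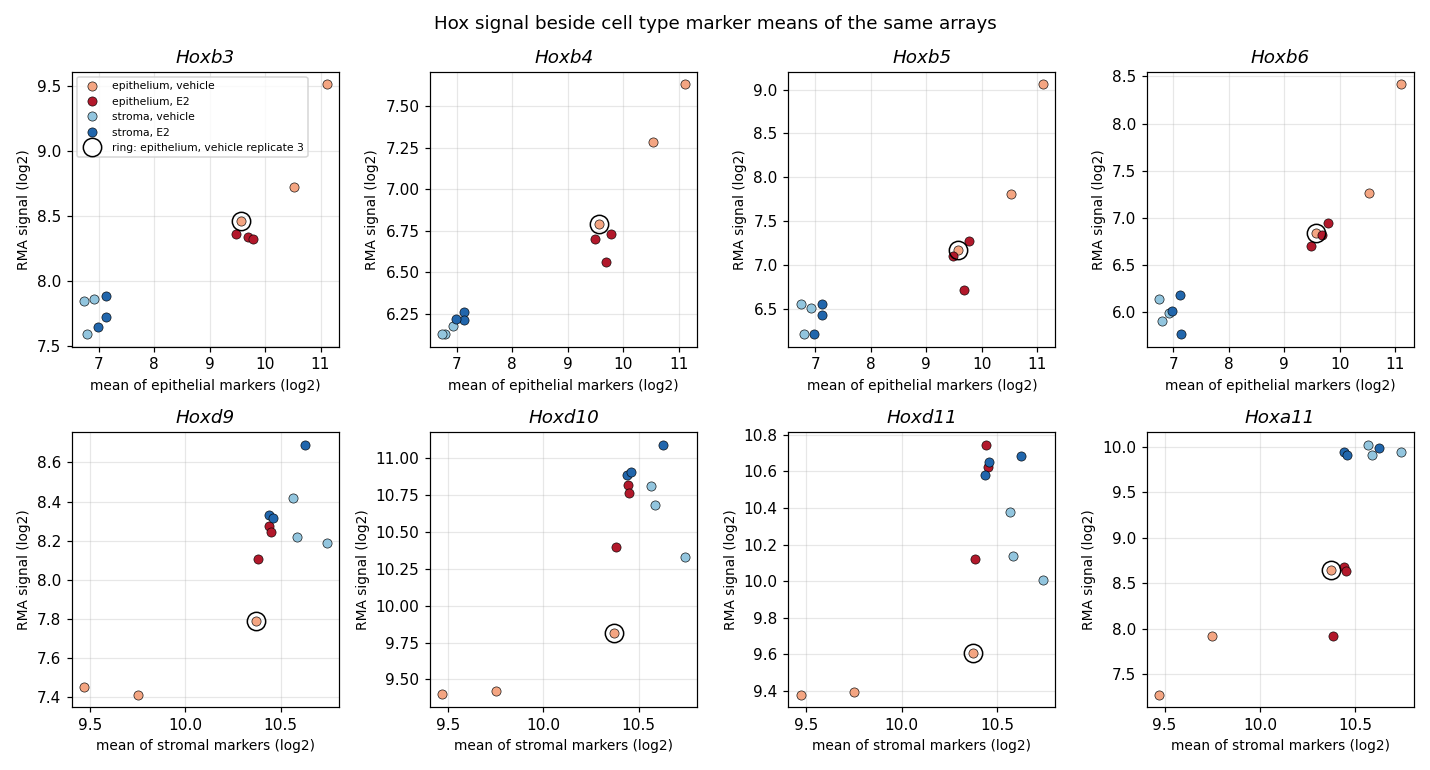
Log2 signal of 8 Hox genes in the 12 arrays against the mean of the epithelial markers (Hoxb3 to Hoxb6) or of the stromal markers (Hoxd9, Hoxd10, Hoxd11 and Hoxa11) of the same array, with a ring around vehicle epithelial replicate 3. The ringed array lies within the range of the E2 epithelial arrays for Hoxb5, Hoxb6 and Hoxa11, just above them for Hoxb3 and Hoxb4, and below them in the HoxD panels, at 9.81 for Hoxd10.

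In stroma no Hox gene passed with E2 by limma, where 3.50% of all probe sets did, 1.52% higher and 1.98% lower. At an unadjusted p under 0.05, 4 genes were higher (Hoxa13, Hoxd4, Hoxd8 and Hoxd11) and 0 lower. All 9 HoxD genes had a positive difference, from 0.03 to 0.47, as did 8 of 9 HoxC genes and 28 of all 37. Of the 23410 probe sets tested, 13484 had a positive difference. The median over the 37 was 0.07, beside 0.03 over all probe sets. Hoxd11 went from 10.14, 10.38 and 10.00 in the vehicle arrays to 10.58, 10.65 and 10.69 in the E2 arrays, without overlap (0.47 ± 0.15, adjusted p = 0.165). Hoxd10 was 10.68, 10.81 and 10.33 and then 10.88, 10.91 and 11.09 (0.35 ± 0.16, adjusted p = 0.402), and Hoxd8 was 7.75, 8.07 and 7.93 and then 8.24, 8.18 and 8.64 (0.44 ± 0.18, adjusted p = 0.292). Hoxa13 had the smallest adjusted p, 0.110, at 6.42, 6.33 and 6.38 and then 6.78, 6.70 and 6.61, close to the dim reference of 6.57. With array weights 4 genes passed (Hoxa13, Hoxd8, Hoxd10 and Hoxd11), and with the 6 stromal arrays alone 2 (Hoxa13 and Hoxd11).

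Whether the E2 effect differed between layers was tested as an interaction, which no Hox gene passed by limma (0.910% of all probe sets did, 0.641% with a higher and 0.269% with a lower effect in epithelium). At an unadjusted p under 0.05, 3 genes had a higher effect in epithelium (Hoxd9, Hoxd10 and Hoxd11) and 1, Hoxb4, a lower one. For Hoxd10 the effect in epithelium exceeded that in stroma by 0.76 ± 0.23 (95% interval 0.27 to 1.26, adjusted p = 0.184), the smallest adjusted p of the 37. For Hoxd11 the excess was 0.57 (adjusted p = 0.339), for Hoxd9 0.49 (0.343) and for Hoxd8 0.48 (0.568). The rise of the HoxD genes in epithelium was therefore not shown to differ from their change in stroma. With array weights 4 genes passed with a higher effect in epithelium (Hoxd8 to Hoxd11) and 2 with a lower one (Hoxb4 and Hoxb5).

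Hox proteins bind DNA together with cofactors of the TALE class, and 2 of the 8 measured rose with E2 in epithelium. Pknox2 rose by 1.11 ± 0.19 (adjusted p = 0.0123) and Pbx3 by 0.53 ± 0.11 (adjusted p = 0.0253). Both were lower in epithelium than in stroma under vehicle (-0.89 and -0.50), as was Pbx2 (-0.57), and 0 were higher. Over all probe sets 1.77% were higher with E2 in epithelium and 14.1% lower in epithelium under vehicle. Under E2 only Meis2 differed, higher in epithelium by 0.74 ± 0.17, where 4.43% of all probe sets were higher and 9.18% lower. None passed with E2 in stroma.

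Polycomb and Trithorax regulators hold Hox clusters silent or active. Of 23 measured, none passed with E2 in either layer. Under vehicle 3 were lower in epithelium (Ezh1, Rnf2 and Bmi1, by -0.75, -0.42 and -0.42), and under E2 Ezh1 (-1.01) and Cbx7 (-0.33) were lower and Phc2 (0.31) higher. These counts are at or below the shares of all probe sets, 21.4% under vehicle and 13.6% under E2. Of 11 factors known to act upstream of Hox genes, 6 were lower and 1 higher in epithelium under vehicle, beside 14.1% and 7.27% of all probe sets. Cyp26b1, which degrades retinoic acid, was lower by -1.73 ± 0.15. Cyp26a1, which does the same, was higher by 1.49 ± 0.39, from a stromal mean of 5.41 that lies below the dim reference. The vehicle epithelial mean of Cyp26a1 was 6.90 ± 1.10 (SD, n = 3). Between layers under E2 Cyp26b1 was again lower in epithelium and Cyp26a1 did not pass. In stroma E2 raised Rarb, a retinoic acid receptor, by 2.20 ± 0.45 (adjusted p = 0.0202) and lowered Egr2, by -1.17 ± 0.17 (adjusted p = 0.00259). Over all probe sets 1.52% were higher and 1.98% lower with E2 in stroma. No factor of this list passed with E2 in epithelium, where Rarb came to 1.77 ± 0.45 without overlap of the groups (limma, adjusted p = 0.0623). Of the list only Egr2 passed the interaction test, so that the Rarb effect was not shown to differ between layers.

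Of 13 genes that lie beside the clusters, Hibadh, next to HoxA, was the only one to pass with E2 in epithelium (0.39 ± 0.08, adjusted p = 0.0213). Among all probe sets 1.77% were higher in that comparison. Mtx2, on the anterior side of HoxD, was lower in epithelium under vehicle (-0.76 ± 0.15) and under E2 (-0.55 ± 0.15). Under vehicle Skap2 was higher and Calcoco1 and Hibadh were lower in epithelium, so that 1 was higher and 3 lower, beside 7.27% and 14.1% of all probe sets.

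Of 18 genes tied to Hoxa10 and Hoxa11 in the uterus, 5 were higher and 7 lower in epithelium under vehicle, where 7.27% and 14.1% of all probe sets were. Pgr, the progesterone receptor, was lower by -2.69 ± 0.24, Itgb3 by -1.66 ± 0.25 and Emx2, a homeobox gene that Hoxa10 represses, by -1.06 ± 0.16, while Ptger4, a prostaglandin receptor, was higher by 1.43 ± 0.21. In epithelium E2 raised Pgr by 2.98 ± 0.24 and Emx2 by 0.77 ± 0.16 (adjusted p = 0.0287). Over all probe sets 1.77% were higher with E2 in epithelium. Of 23 other patterning genes of the tract, 7 were higher and 6 lower in epithelium under vehicle, beside 7.27% and 14.1% of all probe sets. Wnt7a, an epithelial Wnt ligand that Hoxa10 and Hoxa11 expression in the uterus depends on, was higher in epithelium by 3.52 ± 0.46, and Foxl2 and Osr2 were lower by -1.44 ± 0.17 and -1.41 ± 0.13. E2 raised 2 of these 23 in epithelium, Emx2 and Osr2, the latter by 0.84 ± 0.13 (adjusted p = 0.00583), beside the same 1.77%. None of the 23 passed with E2 in stroma. Of 13 homeobox genes related to the Hox class but outside the clusters, Gbx2 alone passed, higher in epithelium under vehicle by 0.43 ± 0.10. This count is near the 7.27% of all probe sets that were higher there.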

How the data were processed

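The authors deposited log2 values from Mouse Gene 1.0 ST arrays (Affymetrix), made with RMA per the submitters' processing notes. Its version and settings are not given in the sources used here. The deposited table held 35556 probe sets, and array medians over the 23410 tested ran from 7.38 to 7.43. Their number limits the precision.

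Differences were tested on the values as deposited with limma 3.58.1 in R 4.3.3 (lmFit and eBayes, a mean for each of the 4 groups, two-sided, with 8 residual degrees of freedom and 3.27 from the prior). Within each comparison, Benjamini-Hochberg adjustment covered the 23410 probe sets with at least 1 symbol. Symbols came from the platform annotation, and sequences and motif counts from RefSeq (GRCm38.p6), which had a promoter window for 21 of the 37 genes. Named genes were those past 0.05 in any comparison, plus Hoxa9, Hoxa10, Hoxa11, Hoxa13 and Hoxd9 to Hoxd11, and up to 4 per list and comparison. The Hox genes, the lists and the rules were chosen with earlier results of these data known. The procedure was tested on simulated data.

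Same-numbered vehicle arrays of the 2 layers deviated together (r = 0.175, 0.137 and 0.125), so that by this check the numbers paired them. The other pairs of groups did not all do so. Alternatives were other scalings, a filter on low values, array weights, a replicate block, fewer arrays and leaving out each array.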

Additional observations from a re-analysis of the deposited data

Results flagged for a closer look

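No Hox gene passed the test of a layer difference in the E2 response as fitted on all arrays with equal weight. Of the other lists and markers 5 genes did, by limma's interaction with Benjamini-Hochberg adjustment (epithelial minus stromal effect, log2). They were 1 each of the 18 genes tied to Hoxa10 and Hoxa11, 11 upstream factors, 18 epithelial, 11 smooth muscle and 6 mesothelial markers. No gene of the other lists passed, and 0.910% of all probe sets did. Pgr, the progesterone receptor, had the larger effect in epithelium, by 2.06 (adjusted p = 0.0186), with a rise of 2.98 in epithelium and 0.92 in stroma. Egr2, a regulator of Hox genes in the hindbrain, differed by 1.21 (adjusted p = 0.0452), with 0.04 in epithelium and -1.17 in stroma. The epithelial marker Krt7 differed by -1.93 (adjusted p = 0.0495), the smooth muscle marker Cnn1 by -0.73 (adjusted p = 0.0144) and the mesothelial marker Msln by -1.40 (adjusted p = 0.0336).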

How the results depend on the processing

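No Hox call changed direction under any alternative run. Of the calls between layers, 19 of 22 under vehicle and 8 of 12 under E2 passed in every alternative, and of the 4 E2 calls in epithelium 0 did. The genes higher with E2 in epithelium (4) came to 0 with the 6 epithelial arrays alone, 2 with the replicate block and 2 to 4 with an array left out. The replicate block gave 15 higher and 6 lower between layers under vehicle, where Hoxa3 was the only call it changed. In the other comparisons same-numbered arrays did not all deviate together, with r from -0.419 to 0.273 for vehicle and E2 epithelium. With the block Hoxd8 and Hoxd9 lost their calls with E2 in epithelium (limma, adjusted p = 0.0639 and 0.083). Hoxb7 and Hoxc13 lost theirs between layers under E2 (limma, adjusted p = 0.0518 and 0.0950). Array weights gave 4 genes higher with E2 in stroma, 2 lower with E2 in epithelium, and 4 higher and 2 lower for the interaction (each 0 without weights), and 18 higher and 5 lower between layers under E2. The 6 stromal arrays alone gave 2 higher with E2 in stroma. Subtracting medians over all probe sets gave 4 lower between layers under E2, and it moved the median of all genes between layers from 0.02 to -0.12 under vehicle and from 0.02 to -0.09 under E2. The cause of these changes was not tested. With an array left out, genes lower with E2 in epithelium ran from 0 to 6 (6 without vehicle epithelial replicate 3), higher with E2 in stroma 0 to 1, lower there 0 to 0, the interaction 0 to 1 in each direction, between layers under E2 7 to 14 higher (7 without stromal E2 replicate 2 or 3, 14 without vehicle epithelial replicate 2) and 2 to 2 lower, and under vehicle 14 to 17 higher and 6 to 7 lower. Dim signal limits the values of HoxC genes, Hoxa3, Hoxa5, Hoxa13 and Hoxb4 to Hoxb6, and the shared spread limits the epithelial tests, where the median SD was 0.185 and 0.158, against 0.0946 and 0.0804 in stroma.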

Other observations

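Among the non-coding transcripts of the clusters and the homeobox genes Evx1 and Evx2 beside them, a set chosen after the values were seen, Mir10a passed between layers under vehicle. It starts next to Hoxb4 in HoxB and gives the microRNA miR-10a-5p, shown with its seed (bases 2 to 8) in capitals.
miR-10a-5p: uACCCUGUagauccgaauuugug
Its probe set stood at 4.36, 5.77 and 4.21 in vehicle epithelium, 3.90 to 4.07 in E2 epithelium and 3.76 to 3.95 in stroma, below the dim reference throughout. The difference was 0.97 ± 0.31 (limma, adjusted p = 0.0430), and vehicle replicate 2, the highest array for Hoxb3 to Hoxb6, was the highest here as well. Of 2 probe sets of Hoxd3os1, an antisense transcript in HoxD, 1 was lower in epithelium under vehicle by -0.32 ± 0.09 (limma, adjusted p = 0.0335). The vehicle epithelial mean of that probe set (6.38) lay below the dim reference. The other probe set did not pass (0.07 ± 0.12). Over all probe sets 7.27% were higher and 14.1% lower in epithelium under vehicle. Mir10b, Mir196a-1, Mir196a-2, Mir196b, Mir615, Hottip, Hoxaas2, Evx1 and Evx2 did not pass in any comparison.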
